A study of Rattus norvegicus with 11 samples.

Results

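The 9 genes described here are neurotrophic factors and receptors, measured in rat striatum after intracerebral hemorrhage (ICH). They were the ligands Bdnf, Gdnf, Igf1 and Cntf and the receptors Ntrk2, Ngfr, Gfra1, Igf1r and Cntfr. The genes were taken by symbol from the deposited matrix, and all 9 were found among its 30560 genes. Adult male Sprague-Dawley rats received collagenase VII-S, a bacterial enzyme that breaks down vessel walls, in the right striatum, and striatal RNA was sequenced in bulk on day 3. IC rats (n = 3), the common model, received 0.2 U in 1.0 μL. IS rats (n = 3), the severe model, received 0.6 U in 3.0 μL. IS-HA rats (n = 3) received the IS dose, and 150 μL of hematoma, about 75% of it, was aspirated through a catheter at 6 h. Normal rats (n = 2) received neither collagenase nor aspiration. No group was injected with vehicle alone, so the injection itself and the hemorrhage cannot be told apart in a comparison with Normal.

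Neurotrophic factors are proteins that bind receptors on neurons and glia and sustain survival, growth and synaptic function. Brain-derived neurotrophic factor (Bdnf) acts through the receptor tyrosine kinase TrkB (Ntrk2), and its precursor also binds the p75 receptor (Ngfr). The striatum is known to receive much of its Bdnf from cortical axons. Glial cell line-derived neurotrophic factor (Gdnf), known for its action on dopaminergic neurons, binds the co-receptor Gfra1, which signals through Ret. Insulin-like growth factor 1 (Igf1) acts through the kinase Igf1r, and ciliary neurotrophic factor (Cntf) through Cntfr together with Lifr and Il6st.

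The sequences upstream of the transcription start are shown for Igf1, Bdnf and Cntf, the ligands that passed the test below in at least 1 comparison with Normal. They come from RefSeq (build GRCr8), cover the 250 bases before an annotated start and run 5′ to 3′ on the gene's strand. Igf1 lies at chr7:24172282-24172531 on the plus strand, the fourth listed start of Bdnf at chr3:116637608-116637857 on the plus strand, and Cntf at chr1:219314536-219314785 on the minus strand.
Igf1: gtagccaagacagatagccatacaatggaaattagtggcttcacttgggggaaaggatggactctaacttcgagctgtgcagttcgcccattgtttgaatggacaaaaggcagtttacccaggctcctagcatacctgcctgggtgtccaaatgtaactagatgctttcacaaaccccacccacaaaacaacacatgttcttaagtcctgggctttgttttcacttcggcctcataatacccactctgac
Bdnf: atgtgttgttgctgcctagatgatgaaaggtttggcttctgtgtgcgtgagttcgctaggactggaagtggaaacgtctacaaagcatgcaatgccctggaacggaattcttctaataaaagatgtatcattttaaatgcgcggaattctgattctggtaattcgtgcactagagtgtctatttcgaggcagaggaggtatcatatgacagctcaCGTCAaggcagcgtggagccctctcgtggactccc
Cntf: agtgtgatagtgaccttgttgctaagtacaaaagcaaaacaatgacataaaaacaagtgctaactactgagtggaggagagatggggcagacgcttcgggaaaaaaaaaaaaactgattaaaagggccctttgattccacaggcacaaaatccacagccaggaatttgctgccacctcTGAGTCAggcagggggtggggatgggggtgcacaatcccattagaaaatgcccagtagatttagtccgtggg
Capitals mark a half-site of the cyclic AMP response element, CGTCA, in the Bdnf window and an AP-1 motif, TGANTCA, in the Cntf window. Both strands were searched for these and for the full response element TGACGTCA, which contains the half-site, a STAT motif TTCNNNGAA and a C/EBP motif TTGCNNAA. The Igf1 window held none of these letters. Of 33469 rat windows of the same length, 18.2% held the half-site, 1.59% the full element, 7.67% the STAT motif, 6.34% the AP-1 motif and 9.22% the C/EBP motif. The table used held 11 windows of 6 members. Of the 6 Bdnf windows the one with the half-site is shown. Of the others, the first held a STAT motif, the third an AP-1 motif and the rest none. The Gdnf window held the half-site, and those of Gfra1 and Igf1r held none.

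Counts assigned to genes ranged from 6701301 in IS-HA replicate 2 to 18817645 in IC replicate 3, so that 3 counts, taken as the floor of detection, corresponded to 0.448 and 0.159 CPM (counts scaled to the library total). This floor covers counting error only. IS-HA replicate 2 stood apart, with a correlation of 0.912 with its own group, whereas the other rats had 0.945 to 0.983. The striatal labels were checked against Drd1 and Ppp1r1b, markers of striatal projection neurons, which were present in all groups at 244 and 2190 TPM (transcript abundance scaled by gene length and library) in Normal and 55.9 and 786 TPM in IS. In bulk tissue, fewer cells of a type and less RNA per cell cannot be told apart.

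In Normal striatum, Ntrk2 had the highest level of the members at 145 ± 18.0 TPM (SD, n = 2), followed by Cntfr at 51.7 ± 2.83 TPM. Gfra1 (13.1 ± 4.32 TPM), Cntf (12.0 ± 1.12 TPM) and Ngfr (9.65 ± 0.415 TPM) came next, and the ranges of Gfra1 and Cntf overlapped. The lowest levels were those of Igf1r (4.60 ± 1.44 TPM), Igf1 (2.88 ± 1.65 TPM), Bdnf (2.42 ± 0.636 TPM) and Gdnf (1.86 ± 0.853 TPM), each overlapping its neighbor in this order. By these means each receptor stood above its ligand, although the Igf1 and Igf1r ranges overlapped. In IS the order was different. Ntrk2 (74.3 ± 21.7 TPM) and Cntfr (32.2 ± 11.8 TPM, both n = 3) still led, but Cntf (20.4 ± 1.32 TPM) and Igf1 (18.6 ± 7.61 TPM) followed, above Gfra1 (8.27 ± 3.34 TPM), and Bdnf (0.581 ± 0.407 TPM) stood with Gdnf (0.523 ± 0.248 TPM) at the bottom.

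**Figure D1:**
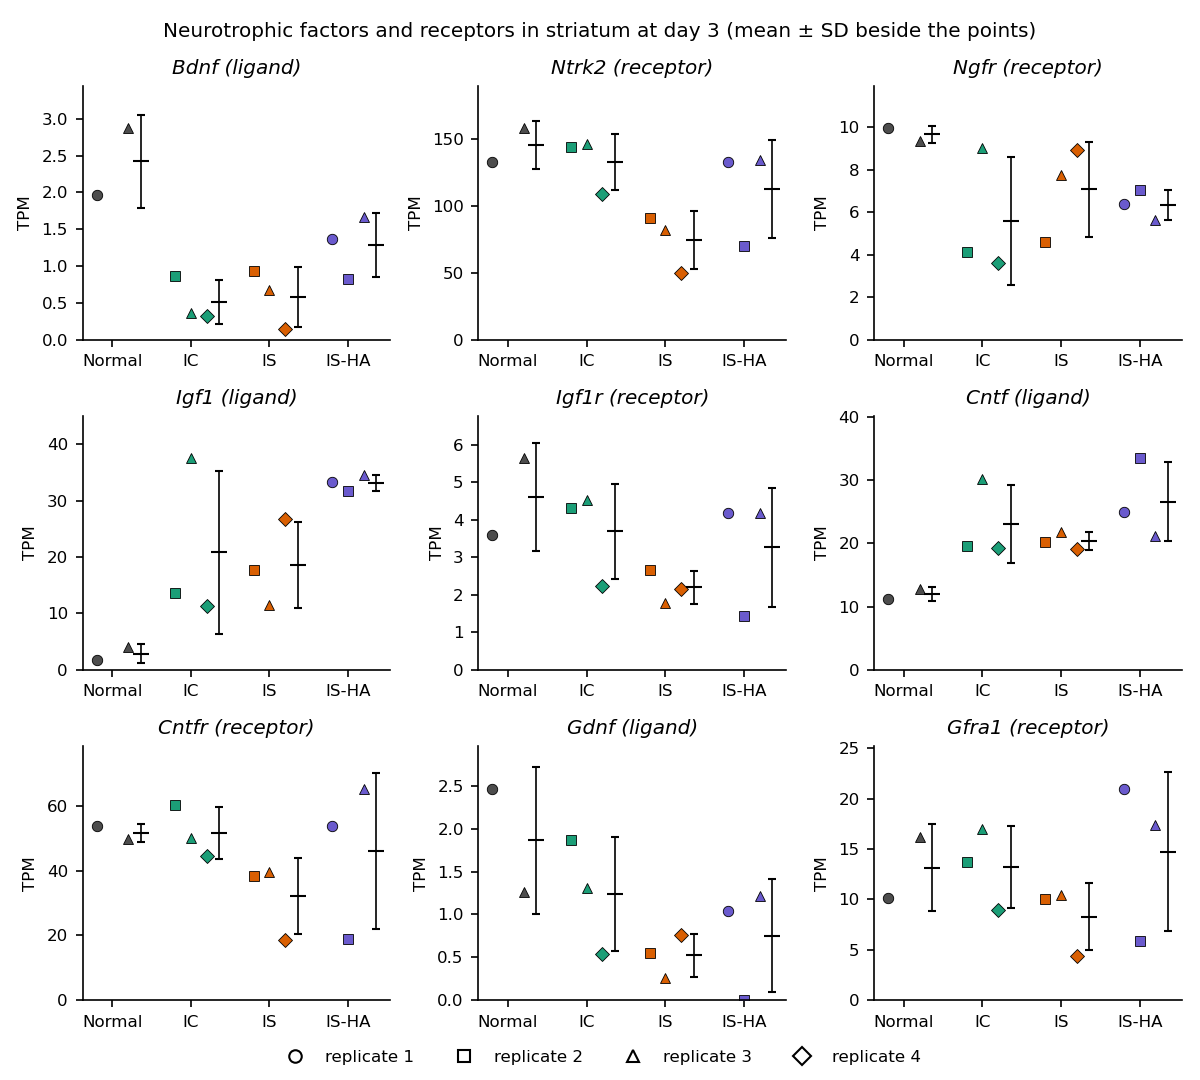
Level of each of the 9 members in every rat, in TPM by group and replicate number, with the mean ± SD beside the points. Igf1 and Cntf of every IC, IS and IS-HA rat lie above both Normal rats, and Bdnf of every such rat lies below them. The share of all genes that separate from Normal in this way was not counted.

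Of the 9 members, 8 passed the filter on low counts and were tested, and Gdnf, with 54 counts over all rats, did not. Each call rests on the quasi-likelihood F test of edgeR, with p adjusted by Benjamini-Hochberg over the 15742 genes tested and a threshold of 0.05. In IC against Normal 2 of 8 members passed, beside 17.6% of all genes. In IS against Normal 4 of 8 passed, beside 49.0% of all genes, and in IS-HA against Normal 2 of 8, beside 31.5%. With 8 members, these shares were near the background and are no result about the members as a set. By direction, Igf1 rose in all 3 comparisons and Cntf in IS-HA, where 13.0%, 24.8% and 19.5% of all genes rose in IC, IS and IS-HA. Bdnf fell in IC and IS, and Ntrk2 and Igf1r fell in IS, where 4.64%, 24.2% and 12.1% of all genes fell in the same order. With the further condition of an absolute log2 fold change of at least 1, 2, 3 and 2 members passed, beside 13.6%, 35.8% and 22.8% of all genes, and Ntrk2 no longer counted. The median log2 fold change of the 8 members was -0.13 in IC, -0.66 in IS and -0.33 in IS-HA, beside 0.003, 0.018 and 0.056 for all genes. The 3 comparisons share the Normal rats and are not independent of each other. Several genes below have every rat of a group above or below both Normal rats. The share of all genes that separate from Normal in this way was not counted, so these placements describe values and add nothing to the calls. Scaling by library size alone in place of edgeR's trimmed mean of M values (TMM) moved the median of all genes to 0.143, 0.146 and 0.183.

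**Figure D2:**
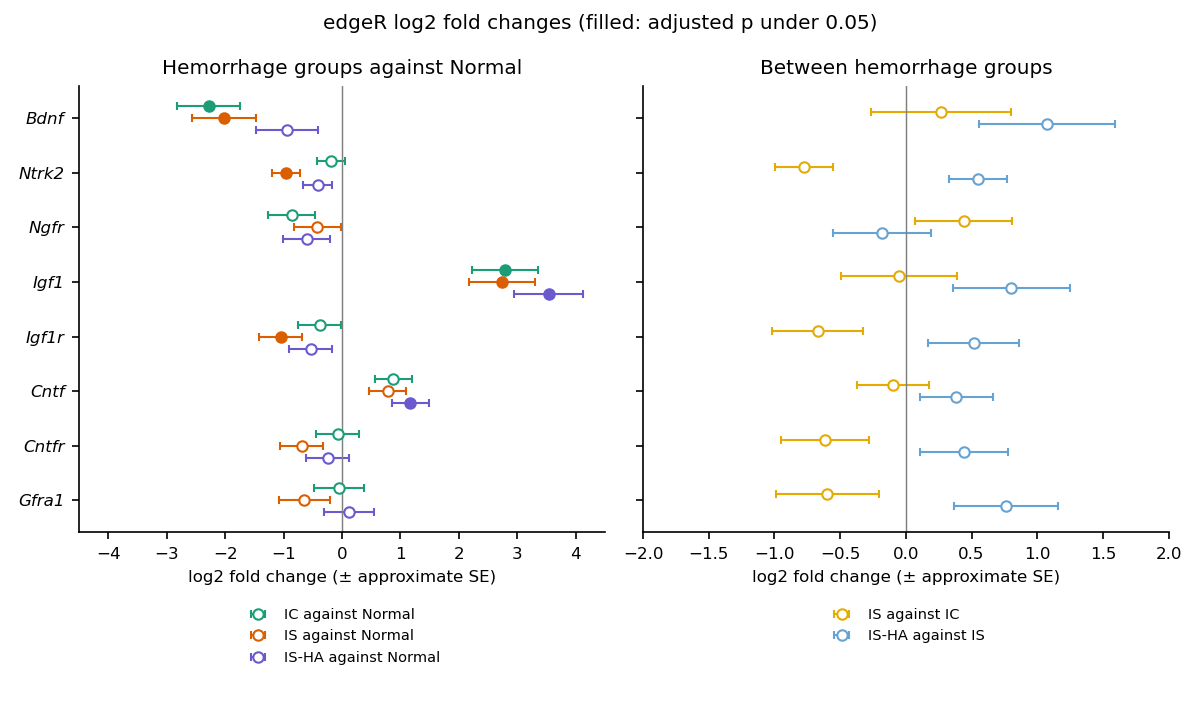
Log2 fold changes of the 8 tested members with their standard errors, against Normal (left) and between the ICH groups (right), filled where the adjusted p was under 0.05. Igf1 stands farthest above 0 against Normal, from 2.74 to 3.54, and Bdnf farthest below it in IC and IS.

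Igf1, a growth factor made in brain by neurons and by reactive microglia, showed the largest rise of the members. Its level was 1.72 and 4.05 TPM in the Normal rats, 13.6, 37.5 and 11.4 TPM in IC, 17.7, 11.5 and 26.7 TPM in IS, and 33.3, 31.7 and 34.6 TPM in IS-HA. Every rat with ICH was above both Normal rats, and in TPM the 3 IS-HA rats lay close together above all IS rats. IC replicate 3 was the highest of all in TPM. On the TMM-normalized scale IS-HA replicate 2 was the highest, with 76.5 CPM beside 69.8 CPM in IC replicate 3. The log2 fold change against Normal was 2.79 in IC (standard error 0.57, edgeR adjusted p = 0.00684), 2.74 in IS (0.57, adjusted p = 0.00294) and 3.54 in IS-HA (0.59, adjusted p = 0.00164). The IC call was lost without Normal replicate 1 (adjusted p = 0.0740), whereas those of IS and IS-HA held without any single rat. Igf1 was set beside markers of microglia and macrophages. All 12 of 12 were in the matrix and none was at 0 in any group, and their summed level was 302 to 434 TPM in Normal, 2570 to 3470 TPM in IC, 4650 to 5800 TPM in IS and 3400 to 5580 TPM in IS-HA. The mean sum was 3120, 5080 and 4230 TPM in IC, IS and IS-HA, and mean Igf1 was 20.8, 18.6 and 33.2 TPM. Not every marker followed the sum. In IS the log2 fold changes of the markers ranged from -0.38 to 6.92, and Tmem119 averaged 26.4 TPM in Normal and 20.3 TPM in IS. The part of these markers in the rise of Igf1 was not tested.

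Cntf, a cytokine of the interleukin-6 family made by astrocytes and Schwann cells, was 11.2 and 12.8 TPM in Normal, 19.6, 30.1 and 19.3 TPM in IC, 20.2, 21.8 and 19.1 TPM in IS, and 25, 33.4 and 21.2 TPM in IS-HA. All 9 rats with ICH were above both Normal rats, and the 3 ICH groups overlapped. Cntf rose in IS-HA, with a log2 fold change of 1.17 (standard error 0.32, edgeR adjusted p = 0.0192). The values of 0.88 in IC (0.31, adjusted p = 0.0758) and 0.78 in IS (0.32, adjusted p = 0.0597) missed the threshold. The IS-HA call was lost without Normal replicate 1 (adjusted p = 0.0979) or 3 (0.115), and without IS-HA replicate 2 those of IC and IS passed (0.0128 and 0.0112). Summed astrocyte markers, 10 of 10 in the matrix with none at 0, were 4470 to 4780 TPM in Normal, 7570 to 9720 TPM in IC, 3970 to 7460 TPM in IS and 5900 to 7710 TPM in IS-HA. Of these markers only Gfap passed the test as higher, from a mean of 401 TPM in Normal to 4480 TPM in IC, 3550 TPM in IS and 3480 TPM in IS-HA. The glutamate transporter Slc1a2 fell in all 3 comparisons. Aqp4, which did not pass, averaged 288 TPM in Normal, 460 TPM in IC, 200 TPM in IS and 337 TPM in IS-HA. The median log2 fold change of the 10 markers was -0.08 in IC, -0.64 in IS and -0.26 in IS-HA. The part of these markers in the level of Cntf was not tested. Whether counting used the strand was not stated, so Cntf and its neighbor in the RefSeq annotation, Zfp91, may share reads and the level of Cntf is uncertain to that extent. Zfp91 averaged 75.7 TPM in Normal, 62.6 TPM in IC, 47.0 TPM in IS and 57.8 TPM in IS-HA. Sharing of reads was not tested.

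Bdnf was the member with the largest fall. Its level was 1.97 and 2.87 TPM in Normal (92 and 131 counts), 0.860, 0.359 and 0.326 TPM in IC (34, 18 and 10 counts), 0.937, 0.670 and 0.138 TPM in IS (28, 21 and 3 counts), and 1.36, 0.819 and 1.67 TPM in IS-HA (54, 17 and 45 counts). All 9 rats with ICH were below both Normal rats, and IS replicate 4 was the lowest, at the floor of 3 counts. Bdnf fell by 2.28 on the log2 scale in IC (standard error 0.54, edgeR adjusted p = 0.0157) and by 2.01 in IS (0.55, adjusted p = 0.0115). In IS-HA the log2 fold change was -0.94 (0.53, adjusted p = 0.184). Both calls rested on Normal replicate 3, without which the adjusted p was 0.132 in IC and 0.0797 in IS, and the IC call was also lost without IC replicate 3 (0.0737) or 4 (0.0610). Markers of cortical glutamatergic neurons, such as Slc17a7, differed between rats of 1 group. All 7 of 7 were in the matrix with none at 0 in any group, and their sum was 118 and 418 TPM in Normal replicates 1 and 3, 152, 39.4 and 36.3 TPM in IC replicates 2, 3 and 4, 434, 137 and 13.8 TPM in IS replicates 2, 3 and 4, and 248, 115 and 333 TPM in IS-HA replicates 1, 2 and 3. In TPM, within each group the rat with the highest Bdnf also had the highest sum and the rat with the lowest Bdnf the lowest sum. On the TMM-normalized scale the lowest IC rat for Bdnf was replicate 3, with 0.907 CPM beside 0.946 CPM in replicate 4. Between groups the order was not shared. IS replicate 2 had the highest sum of all rats with 0.937 TPM of Bdnf, and Normal replicate 1 had a sum of 118 TPM with 1.97 TPM of Bdnf. The median log2 fold change of the 7 markers against Normal was -1.76 in IC, -0.39 in IS and -0.22 in IS-HA. The part of these markers in the level of Bdnf was not tested.

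Gdnf was near the floor in every group. Its counts were 14 and 7 in Normal, 9, 8 and 2 in IC, 2, 1 and 2 in IS, and 5, 0 and 4 in IS-HA, that is 1.86 ± 0.853 TPM (SD, n = 2) in Normal and 0.523 ± 0.248 TPM (n = 3) in IS. The 3 IS rats were at or under 3 counts, and the 0 of IS-HA replicate 2 allows up to 0.448 CPM at its depth. With no filter on low counts, which brought Gdnf into the edgeR test, its log2 fold change was -1.85 in IS against Normal (adjusted p = 0.117), and a difference was not detectable at this depth.

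Ntrk2, the receptor of Bdnf, was 133 and 158 TPM in Normal, 144, 146 and 109 TPM in IC, 90.9, 82.3 and 49.7 TPM in IS, and 133, 70.2 and 134 TPM in IS-HA. The 3 IS rats were below every Normal and every IC rat, and IS-HA replicate 2 was the one IS-HA rat within the IS range. Ntrk2 fell by 0.96 on the log2 scale in IS against Normal (standard error 0.24, edgeR adjusted p = 0.00781), a call lost without Normal replicate 3 (0.0601). The log2 fold changes of -0.19 in IC (0.24, adjusted p = 0.619) and -0.42 in IS-HA (0.24, adjusted p = 0.200) did not pass. The counts are per gene and do not separate the kinase form of TrkB from the truncated form that lacks the kinase.

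Ngfr, the p75 receptor, was 9.94 and 9.36 TPM in Normal, 4.11, 9.02 and 3.61 TPM in IC, 4.57, 7.72 and 8.92 TPM in IS, and 6.38, 7.04 and 5.61 TPM in IS-HA. All rats with ICH were below the Normal rats in TPM, but on the TMM-normalized scale IS overlapped Normal. None of the log2 fold changes passed edgeR's test, with -0.86 in IC (standard error 0.40, adjusted p = 0.156), -0.42 in IS (0.41, adjusted p = 0.407) and -0.61 in IS-HA (0.41, adjusted p = 0.264).

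Igf1r, the receptor of Igf1, was 3.58 and 5.63 TPM in Normal, 4.30, 4.52 and 2.24 TPM in IC, 2.65, 1.78 and 2.15 TPM in IS, and 4.18, 1.44 and 4.18 TPM in IS-HA. The IS rats were below both Normal rats and overlapped IC. Igf1r fell by 1.05 on the log2 scale in IS against Normal (standard error 0.37, edgeR adjusted p = 0.0376). This call was the least firm of the 8 calls, since it was lost without either Normal rat (adjusted p = 0.0520 without replicate 1 and 0.249 without replicate 3) and without any of the 3 IS rats (0.0538, 0.114 and 0.0730 without replicates 2, 3 and 4). The values in IC (-0.38, 0.37, adjusted p = 0.494) and IS-HA (-0.53, 0.37, adjusted p = 0.278) did not pass.

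Cntfr, which binds Cntf, was 53.7 and 49.7 TPM in Normal, 60.2, 50.0 and 44.4 TPM in IC, 38.3, 39.7 and 18.5 TPM in IS, and 53.8, 18.9 and 65.3 TPM in IS-HA. The IS rats were below all Normal and IC rats, and IS-HA split into 2 rats at or above the Normal level and replicate 2 at the level of the lowest IS rat. The log2 fold change against Normal was -0.07 in IC (standard error 0.37, edgeR adjusted p = 0.914), -0.68 in IS (0.37, adjusted p = 0.143) and -0.24 in IS-HA (0.37, adjusted p = 0.627). Without IS-HA replicate 2, which enters the shared estimate of spread, the IS value passed (-0.68, adjusted p = 0.0368).

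Gfra1, the co-receptor of Gdnf, was 10.1 and 16.2 TPM in Normal, 13.7, 17.0 and 8.93 TPM in IC, 4.42 to 10.4 TPM in IS, and 21.0, 5.86 and 17.4 TPM in IS-HA. The groups overlapped in each comparison on the TMM-normalized scale. The log2 fold changes of -0.04 in IC (standard error 0.43, edgeR adjusted p = 0.951), -0.64 in IS (0.43, adjusted p = 0.233) and 0.12 in IS-HA (0.43, adjusted p = 0.843) did not pass.

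The balance of ligand and receptor transcripts was described by the ratio of their TPM in each rat, with no test. For Igf1 and Igf1r the ratio was 0.599 ± 0.170 in Normal (SD, n = 2), 5.52 ± 2.59 in IC, 8.53 ± 3.38 in IS and 12.8 ± 8.06 in IS-HA (n = 3 each). The IS-HA value rested on replicate 2 (22.1), without which it was 8.12. The IS value rested on replicate 4 (12.4), without which it was 6.57, so the order of IS and IS-HA depended on single rats. For Cntf and Cntfr it was 0.232 ± 0.0344, 0.454 ± 0.138, 0.703 ± 0.285 and 0.853 ± 0.797 in the same order. Without IS-HA replicate 2 (1.77) the IS-HA value was 0.395, and without IS replicate 4 (1.03) the IS value was 0.538. Bdnf relative to Ntrk2 went the other way, with 0.0165 ± 0.00233 in Normal, 0.00380 ± 0.00190 in IC, 0.00707 ± 0.00388 in IS and 0.0115 ± 0.00112 in IS-HA. Igf1 transcripts thus outnumbered those of its receptor in the ICH groups but not in Normal. Leaving out single rats was chosen here after the data were seen.

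The severity of the hemorrhage and the effect of aspiration were addressed by IS against IC and IS-HA against IS. IS and IC differed in injected volume as well as in dose. IS-HA rats were also anesthetized again and had a catheter passed through the hematoma. No group had these steps without aspiration, so they cannot be told apart from it. In IS against IC 0 of 8 members passed edgeR's test, beside 0% of all genes. At an unadjusted p under 0.05 the count was 1, beside 22.2% of all genes, and DESeq2's Wald test called 1, beside 6.19%. Both were Ntrk2, with a log2 fold change of -0.78 (standard error 0.22, edgeR adjusted p = 0.148) and an adjusted p of 0.0228 in DESeq2. It also passed in edgeR without IS-HA replicate 2 (adjusted p = 0.0300). The log2 fold changes of the other members were -0.67 for Igf1r (edgeR adjusted p = 0.264), -0.62 for Cntfr (0.289) and -0.60 for Gfra1 (0.363). They were -0.10 for Cntf, -0.05 for Igf1, 0.27 for Bdnf and 0.44 for Ngfr.

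In IS-HA against IS 0 of 8 members passed, beside 0.00635% of all genes, which was 1 gene. At an unadjusted p under 0.05 the count was 1, Ntrk2, beside 8.94% of all genes, and DESeq2 called 0, beside 0.451%. The log2 fold changes were 1.07 for Bdnf (standard error 0.52, edgeR adjusted p = 0.563), 0.80 for Igf1 (0.45, adjusted p = 0.585), 0.76 for Gfra1 (0.39, adjusted p = 0.569), 0.55 for Ntrk2 (0.22, adjusted p = 0.548) and 0.39 for Cntf (0.28, adjusted p = 0.658). Those of Igf1r (0.52, adjusted p = 0.639), Cntfr (0.44, adjusted p = 0.672) and Ngfr (-0.18, adjusted p = 0.899) did not pass either. Bdnf and Igf1 of all 3 IS-HA rats were above all IS rats on the TMM-normalized scale, although Bdnf of IS-HA replicate 2 lay within the IS range in TPM. The share of all genes that separate in this way was not counted, so this is no result about aspiration. In IS-HA against IC 0 of 8 members passed, beside 0% of all genes. The count at an unadjusted p under 0.05 was 1, Bdnf (log2 fold change 1.34, adjusted p = 0.841), beside 4.97% of all genes, and DESeq2 called 0, beside 0.133%.

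**Figure D3:**
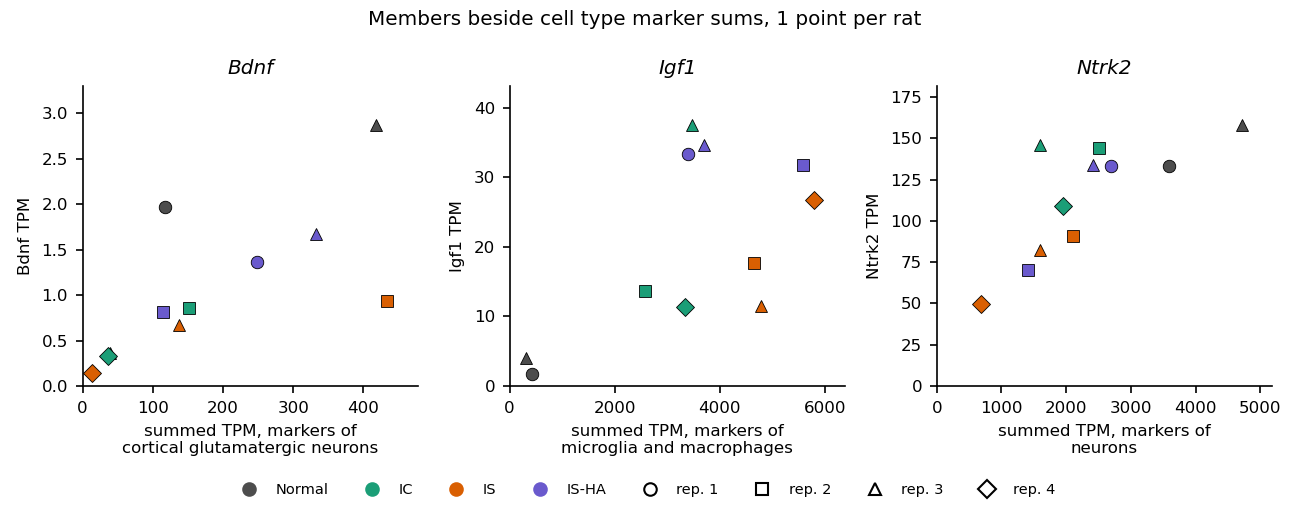
TPM of Bdnf, Igf1 and Ntrk2 in each of the 11 rats against the summed TPM of markers of cortical glutamatergic neurons, of microglia and macrophages and of neurons, colored by group. Igf1 and the microglia and macrophage sum are both lowest in the 2 Normal rats, and the lowest Bdnf and the lowest cortical neuron sum, 13.8 TPM, belong to IS replicate 4. The highest cortical neuron sum, 434 TPM, belongs to IS replicate 2, with 0.937 TPM of Bdnf.

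Ntrk2 and Igf1r, the receptors that fell in IS, were set beside neuronal, oligodendrocyte and astrocyte markers. Summed neuronal markers, 10 of 10 in the matrix with none at 0, were 3590 to 4710 TPM in Normal, 1590 to 2500 TPM in IC, 679 to 2100 TPM in IS and 1410 to 2690 TPM in IS-HA. Summed oligodendrocyte markers, 8 of 8 with none at 0, were 17900 to 18400 TPM in Normal, 10700 to 15400 TPM in IC, 6400 to 10700 TPM in IS and 10100 to 15100 TPM in IS-HA. The median log2 fold change of the neuronal markers against Normal was -1.19 in IC, -1.54 in IS and -1.10 in IS-HA. In the same order it was -0.54, -0.97 and -0.61 for the oligodendrocyte markers. For the astrocyte markers, whose sums are given above, it was -0.08, -0.64 and -0.26. The part of these markers in the lower Ntrk2 and Igf1r of IS was not tested.

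The members were set beside 74 other genes of the same pathways, of which 65 were tested. In IC against Normal 10 rose and 5 fell, 23.1% of those tested. In IS 14 rose and 24 fell (58.5%), and in IS-HA 13 rose and 13 fell (40.0%). The share of all genes called was 17.6%, 49.0% and 31.5%, and the median log2 fold changes of these genes were -0.15, -0.48 and -0.29. In IS against IC, IS-HA against IS and IS-HA against IC edgeR called 0 of 65. Before adjustment 18, 14 and 9 of them had a p under 0.05, beside 22.2%, 8.94% and 4.97% of all genes, and DESeq2 called 12, 0 and 1, beside 6.19%, 0.451% and 0.133%.

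**Figure D4:**
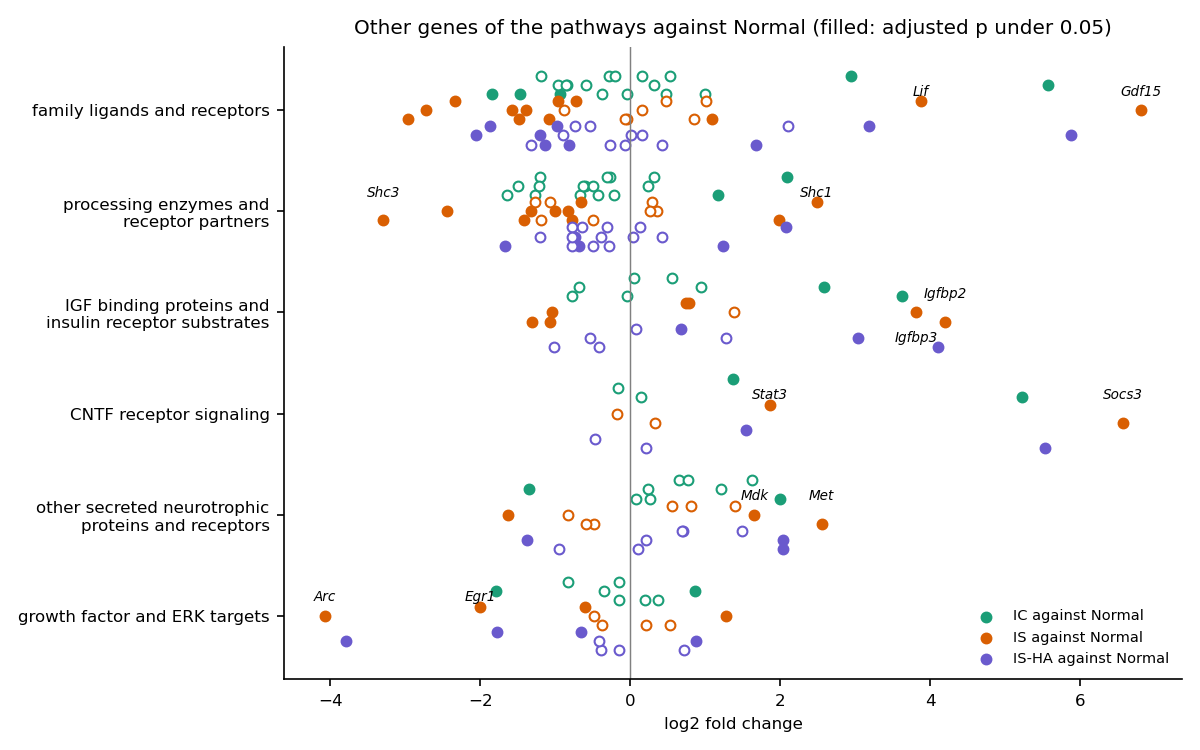
Log2 fold changes against Normal of the 65 tested genes of the pathway lists, colored by comparison and filled where the adjusted p was under 0.05. Gdf15, Socs3 and Igfbp2 lie farthest above 0 in each comparison, and in IS Arc and Shc3 lie farthest below it.

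The other ligands and receptors of the families numbered 24, of which 19 were tested. In IS against Normal 3 rose and 9 fell, in IC 2 and 3, and in IS-HA 3 and 6. Of all genes 24.8% rose and 24.2% fell in IS, 13.0% and 4.64% in IC, and 19.5% and 12.1% in IS-HA. The same shares apply to the counts of the lists below. Ntrk3, the receptor of neurotrophin 3, was 25.7 and 33.3 TPM in Normal and 6.87, 6.06 and 4.33 TPM in IS, a log2 fold change of -2.34 (standard error 0.42, edgeR adjusted p = 0.00147). All IS rats were below both Normal rats, and Ntrk3 also fell in IS-HA (-1.87, adjusted p = 0.00791). Sort1 and Sorcs2, which bind proneurotrophins with p75, fell by 1.49 (adjusted p = 0.000906) and 1.39 (adjusted p = 0.00146) in IS, and Sort1 fell in all 3 comparisons.

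Ret, the signaling receptor shared by the Gdnf family, rose in IS-HA by 1.68 (standard error 0.43, edgeR adjusted p = 0.0138). Its level was 2.62 and 3.08 TPM in Normal and 12.2, 3.48 and 13.1 TPM in IS-HA, so that replicate 2 was far below the other rats. Gfra4, the co-receptor of persephin, fell by 0.97 in IS (adjusted p = 0.0461), and Gfra2 (-0.88, adjusted p = 0.0608) did not pass. Gdf15, a stress-induced cytokine whose receptor Gfral pairs with Ret, had 0 and 4 counts in Normal and 14.5, 16.9 and 49.1 TPM in IS. It passed in all 3 comparisons, and its fitted fold change is imprecise because Normal is near the floor (6.81 in IS, standard error 1.11, adjusted p = 0.000817).

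Of the further subunits that Cntf signals through, Lifr fell and Il6st did not pass. Lifr was 4.58 and 9.80 TPM in Normal, 2.61, 2.38 and 1.18 TPM in IC, 0.848, 0.982 and 0.833 TPM in IS, and 4.66, 0.611 and 3.49 TPM in IS-HA. It fell by 1.84 in IC (standard error 0.53, edgeR adjusted p = 0.0370) and by 2.97 in IS (0.58, adjusted p = 0.00214), and its value in IS-HA was -1.33 (adjusted p = 0.0770). Il6st, the shared subunit gp130, had a log2 fold change of 0.15 in IS (0.15, adjusted p = 0.440). Lif, another ligand of Lifr, rose by 2.95, 3.87 and 3.18 in IC, IS and IS-HA (adjusted p = 0.0138, 0.00139 and 0.00674). Downstream, 2 of 4 genes of the receptor signaling list rose in each comparison, and both were the same in all of them. Stat3, the transcription factor, rose by 1.86 in IS (0.20, adjusted p = 7.97e-05). Socs3, its feedback inhibitor, was 1.13 and 0.886 TPM in Normal and 86.9, 86.7 and 111 TPM in IS and rose by 6.57 (0.48, adjusted p = 3.13e-05). These genes also respond to other cytokines.

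In the insulin-like growth factor system, of 8 tested genes for binding proteins and receptor substrates, 2 rose in IC, 4 rose and 3 fell in IS, and 3 rose in IS-HA. Igfbp2 was 8.71 and 24.4 TPM in Normal and 385, 312 and 200 TPM in IS, a rise of 4.20 (standard error 0.58, edgeR adjusted p = 0.000341). Igfbp3, the main carrier in plasma, rose by 3.81 in IS (0.52, adjusted p = 0.000318), and both rose in IC and IS-HA as well. Igfbp5 (-1.07, adjusted p = 0.0169), Irs1 (-1.31, adjusted p = 0.0163) and Irs2 (-1.05, adjusted p = 0.00524) fell in IS, the Irs proteins being adapters that couple the receptors to PI3 kinase. Igf2 fell by 0.73 (adjusted p = 0.0198) and the insulin receptor Insr by 1.57 (adjusted p = 0.0150) in IS, and Igf2r, which clears Igf2, rose by 1.09 (adjusted p = 0.0136).

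Of 17 genes for neurotrophin processing and receptor partners, 2 rose in IC, 2 rose and 8 fell in IS, and 2 rose and 3 fell in IS-HA. Furin, a protease that cleaves proneurotrophins, rose in IS by 1.99 (edgeR adjusted p = 0.00109), and Pcsk1, a neuroendocrine convertase, fell by 2.45 (adjusted p = 0.00418). The adapters of the Trk receptors diverged. Shc1 was 14.1 and 13.3 TPM in Normal and 79.3, 53.7 and 94.9 TPM in IS and rose by 2.49 (adjusted p = 0.000204), whereas Shc3, the neuronal form, was 11.5 and 23.6 TPM in Normal and 2.07, 2.22 and 0.887 TPM in IS and fell by 3.29 (adjusted p = 0.00116).

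Among 8 targets of growth factor and ERK signaling, 1 rose and 1 fell in IC, and 1 rose and 3 fell in IS and in IS-HA. Vgf, which did not pass, averaged 130 TPM in Normal, 173 TPM in IC, 183 TPM in IS and 209 TPM in IS-HA. Arc, an immediate early gene, had the largest fall. Arc was 183 and 136 TPM in Normal, 39.4, 34.6 and 67.8 TPM in IC, 6.39, 15.5 and 6.24 TPM in IS, and 18.1, 4.88 and 13.2 TPM in IS-HA. No rat with ICH reached the Normal range, and the IS and IS-HA rats were all below the IC rats. Arc fell by 1.80 in IC (standard error 0.49, edgeR adjusted p = 0.0293), 4.07 in IS (0.53, adjusted p = 0.000238) and 3.79 in IS-HA (0.52, adjusted p = 0.000552). Egr1 fell in IS by 2.01 (adjusted p = 0.000431) and in IS-HA by 1.78 (adjusted p = 0.00144), and Dusp6, a phosphatase of ERK, rose in all 3 comparisons (1.27 in IS, adjusted p = 0.000233). Of 9 tested genes for other secreted neurotrophic proteins and their receptors, Met, the receptor of hepatocyte growth factor, rose in all 3 comparisons (2.55 in IS, adjusted p = 0.00164) and Nrg1 fell in all 3 (-1.63 in IS, adjusted p = 0.00636). Mdk rose in IS (1.65, adjusted p = 0.0171) and IS-HA (2.04, adjusted p = 0.0114).

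The genes with the most similar pattern over the 11 rats were found by Pearson's r of log2 CPM, as a description in which the group differences are included. For Bdnf they were Cntnap4 (r = 0.970), Ggt7 (0.947) and Tmem35a (0.946). Those of Ntrk2 were Rnpc3 (0.981), Plxnb1 (0.977) and Cd81 (0.976), and those of Igf1 included Picalm (0.967) and Tmem117 (0.964). Cntf was nearest to Hdac8 (0.965), Lap3 (0.956) and Lrrc42 (0.947), and Igf1r to Zfp26 (0.983), Qser1 (0.980) and Rfx7 (0.979). Gfra1 was nearest to Pdik1l (0.947) and Cntfr to LOC102551819 (0.959). Ngfr had the weakest match, Cdc42ep1, at 0.935.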

How the data were processed

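Bulk striatal RNA of 11 rats was prepared with the TruSeq Stranded mRNA kit and sequenced as 150-base paired reads. The authors deposited read counts per gene as whole numbers without normalization, and TPM, in which the authors divided counts by gene length and scaled each rat to one sum. The submitters' processing notes name fastp 0.20.0, HISAT2 2.1.0, SAMtools 1.9, featureCounts, DESeq2 and build mRatBN7.2; the annotation version and the strand setting are not given in the sources used here. Every column was matched to a rat by its library name.

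Counts were filtered with filterByExpr, scaled by TMM and tested in one fit over the 4 groups with edgeR 4.0.16 (quasi-likelihood F test, R 4.3.3) at a Benjamini-Hochberg adjusted p under 0.05 over 15742 genes. Standard errors were approximated from the F statistic (absolute log2 fold change over its square root). Alternatives were DESeq2 1.42.0 (size factors and Wald test), limma 3.58.1 on log2 TPM, library size alone, scaling without hemoglobin and mitochondrial genes, other count filters, fits of 2 groups alone, fits without 1 rat and a replicate block, and the methods were tested on simulated data. Labels number the replicates within each group and say no more about the animals, so p-values measure the spread between these libraries. The replicate numbers were not taken to pair rats across groups.

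Named genes are all 9 members, ligands and receptors of their families, up to 12 genes that passed per comparison from the other pathway lists, taken by size of change, up to 3 markers per cell type and the 3 most similar genes per member. Zfp91 was added as a neighbor of Cntf, and Vgf as a gene of the ERK target list with higher means than Normal. Members and lists were chosen with earlier results of these data known. Some genes that this rule would name are not reported here.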

Additional observations from a re-analysis of the deposited data

How the results depend on the processing

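The 8 calls of members kept their direction in every alternative run, and Igf1 in IS and in IS-HA against Normal passed in all 21, with adjusted p of at most 0.0360 and 0.0235. Igf1r in IS passed in 12 of 21, Cntf in IS-HA in 17, Igf1 in IC and Ntrk2 in IS in 19 each, and Bdnf in IC and IS in 16 and 18 of the 20 in which it was tested. Cntf in IC and IS, Cntfr in IS and Ntrk2 in IS against IC passed in 6, 7, 1 and 2 of 21. With 2 Normal rats, leaving out either leaves a lone rat that is assumed to vary like the other groups, and Igf1r, Bdnf and Gdnf are limited by low counts.

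Members past the test, leaving out each rat in turn, numbered 1 to 3 in IC, 1 to 6 in IS and 1 to 2 in IS-HA against Normal, 0 to 1 in IS against IC and 0 in IS-HA against IS. The 6 and the 3 came without IS-HA replicate 2, as did the 1 in IS against IC, and the 1 in IS came without Normal replicate 3. In IC and IS 33.3% and 59.5% of all genes passed without IS-HA replicate 2, and in IS 24.6% without Normal replicate 3. Pathway genes numbered 6 to 33 in IC, 23 to 47 in IS and 12 to 30 in IS-HA against Normal, 0 to 15 in IS against IC and 0 to 9 in IS-HA against IS, the 15 and the 9 without IS-HA replicate 2, where 14.1% and 4.37% of all genes passed. A minimum of 10 counts in every rat left 1 member in IC, since Bdnf was then untested. With only the 2 groups compared, 1 member and 16 pathway genes passed in IS-HA and 35 pathway genes in IC against Normal, where 15.4% and 35.6% of all genes passed. DESeq2's Wald test gave 24 pathway genes in IC against Normal, 12 and 1 member in IS against IC, and 1 in IS-HA against IC, where 25.4%, 6.19% and 0.133% of all genes passed. Beyond fewer genes or rats tested, the cause of these changes was not tested.

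With the replicate number as a block, 0, 1 and 1 members and 6, 18 and 17 pathway genes passed in IC, IS and IS-HA against Normal, beside 5.33%, 17.7% and 15.3% of all genes. The numbers name different animals. Deviations of same-numbered IC and IS rats from their group means correlated at -0.340 to 0.356 across genes, and those of IS and IS-HA rats at -0.475 to -0.0894. With so few rats per group, each set against its own mean, this check can neither show nor exclude pairing. In the blocked fit Ntrk2 (0.079), Gfra1 (0.53) and Cntfr (0.43) in IC against Normal and Igf1 in IS against IC (0.0056) changed sign, none of which passed in either fit.

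Other changes of sign were also in log2 fold changes that did not pass. Gfra1 in IC against Normal was 0.10 with library size alone, 0.0030 and 0.0024 with limma on log2(TPM + 1) and log2(TPM + 0.1), and -0.30 to 0.26 without single rats. Cntfr there was 0.072 with library size alone and -0.19 to 0.056 without single rats. Without single rats Gfra1 and Cntfr in IS-HA against Normal ranged from -0.18 to 0.43 and from -0.54 to 0.061, Bdnf, Igf1 and Cntf in IS against IC from -0.16 to 0.82, -0.47 to 0.62 and -0.21 to 0.097, and Ngfr in IS-HA against IS from -0.46 to 0.065.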
